A study of Rattus norvegicus with 3 samples.

Results

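Vascular smooth muscle nuclei made up 80 of the 24664 nuclei analysed from rat heart, or 0.324% (exact Clopper-Pearson 95% interval 0.257% to 0.404%). They were selected on their own transcripts, counted as unique molecular identifiers (UMIs), each of which stands for 1 captured molecule. A member had at least 4 UMIs summed over Myh11, Acta2, Tagln and Cnn1, and at least as many of these as of the pericyte genes Rgs5, Kcnj8, Notch3 and Pdgfrb together. The cardiomyocyte genes Actn2, Rbm20, Cmya5 and Mlip had to hold under 0.4% of its UMIs, the fibroblast genes Dcn, Pdgfra and Bicc1 at most 1 UMI, and the endothelial genes Flt1, Ptprb and Cyyr1 at most 2 UMIs. Values of these genes in the members are therefore descriptions of the choice.

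The study profiled single nuclei sorted from the heart apex, with parts of the septum and both ventricles, of rats aged 12 months. Wild-type (WT) littermates were set beside BMD rats, in which CRISPR/Cas9 removed exons 45 to 47 of Dmd in frame as a model of Becker muscular dystrophy, and DMD rats, which lack exon 52 as a model of Duchenne muscular dystrophy. Each deletion lies in the germline, so smooth muscle carries it as well as striated muscle. There was 1 library per genotype, and the number of animals behind it was not given in the sources used here, so no test between genotypes was possible. All intervals cover counting error only, and a difference between genotypes cannot be told apart from a difference between animals or libraries.

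Vascular smooth muscle cells form the muscular wall of arteries, arterioles and veins and set the diameter of the vessel. Calcium that enters through L-type channels activates myosin light chain kinase, and myosin 11 then pulls on smooth muscle actin, while nitric oxide relaxes the cell through soluble guanylate cyclase and cyclic GMP. The contractile genes are switched on by serum response factor with its coactivator myocardin (Myocd). Pericytes, the related cells of capillaries, share Notch3 and several signalling genes with smooth muscle but hold little of its contractile apparatus.

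The WT library held 25 members of 9964 nuclei, a share of 0.251% (0.162% to 0.370%). BMD gave 32 of 6810 nuclei, or 0.470% (0.322% to 0.663%), and DMD 23 of 7890, or 0.292% (0.185% to 0.437%). The BMD share was the highest of the 3, by 0.219 percentage points over WT (Newcombe 95% interval 0.037 to 0.428), while DMD minus WT was 0.041 points (-0.113 to 0.207) and DMD minus BMD was -0.178 points (-0.394 to 0.021). Depth enters these shares, because the rule counts UMIs: the median nucleus of the WT, BMD and DMD libraries held 1212.5, 1486.5 and 1229 UMIs. With every nucleus thinned to 500 UMIs before the rule was applied, 17 WT, 21 BMD and 19 DMD nuclei met it, or 0.171%, 0.308% and 0.241%, in the same order, and 15, 19 and 16 of these were members at full depth. Pericyte nuclei, taken by at least 4 UMIs of the pericyte genes and fewer of the smooth muscle genes, numbered 368, 233 and 250. Of smooth muscle and pericyte nuclei together, smooth muscle was 6.36% for WT (4.16% to 9.25%), 12.1% for BMD (8.41% to 16.6%) and 8.42% for DMD (5.42% to 12.4%). No barcode was shared between members of different libraries, while 20 nucleus barcodes were shared by WT and BMD, 12 by WT and DMD and 12 by BMD and DMD.

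**Figure D1:**
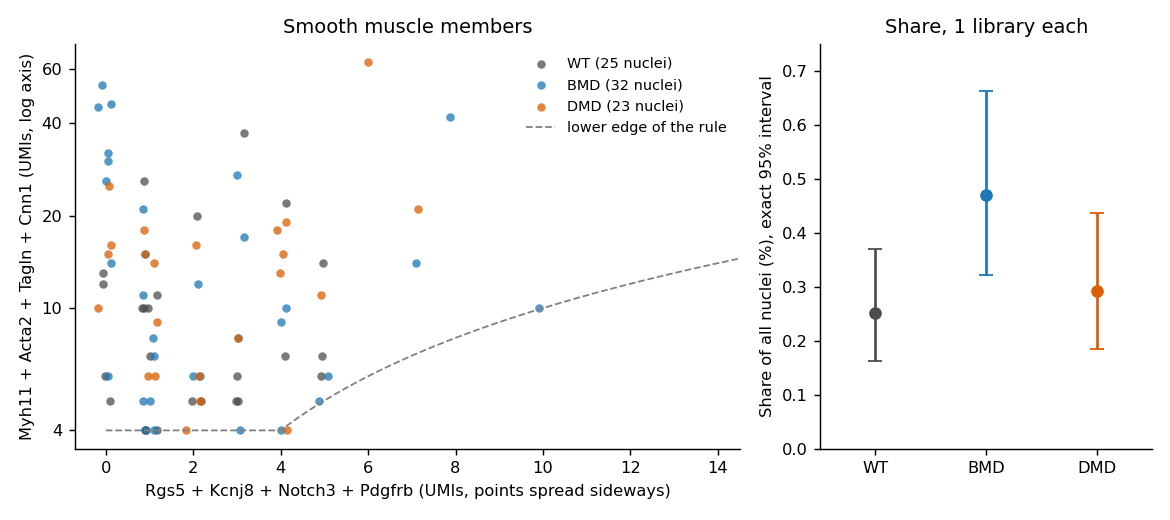
Left, each of the 80 members by its summed UMIs of the pericyte genes (x axis) and of the smooth muscle genes (y axis, log scale), with the lower edge of the rule dashed; right, the share of all nuclei in each library (%) with its exact 95% interval. Members reach from 4 to 63 smooth muscle UMIs, and the BMD share of 0.470% is the highest, with an interval that overlaps both others.

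Nuclei lay on both sides of the edge of the rule. Of the members, 9 had exactly 4 smooth muscle UMIs, and 8 nuclei that met every other limit had 3. In 4 members the smooth muscle and pericyte sums were equal, and 4 nuclei fell outside by 1 pericyte UMI, while 16 members held no pericyte UMI at all. Across the libraries 131 nuclei had at least 4 smooth muscle UMIs, and 36 of the 116 in which these were at least as many as the pericyte UMIs failed a limit on another cell type. In DMD, 21 of 44 such nuclei failed, 19 of them on the fibroblast genes, against 5 of 30 in WT and 10 of 42 in BMD. The shares above count only nuclei that passed these limits, so they depend on them, most of all in DMD.

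The members carried the markers of smooth muscle. Myh11, smooth muscle myosin heavy chain, was detected in 80 of 80 members, with 206, 379 and 251 UMIs (WT, BMD and DMD, the order kept below wherever a gene has 3 values). Acta2, smooth muscle actin, was detected in 64 members with 42, 98 and 63 UMIs, and Tagln, the actin-binding protein transgelin, in 28 members with 11, 32 and 17 UMIs. Cnn1, calponin, was sparse, with 2, 3 and 6 UMIs. Notch3, the Notch receptor of mural cells, was detected in 42 of 80 members and stood within 2-fold of the pericyte level. It held 1012, 806 and 1051 CPM, which are UMIs of the gene scaled to a total of 1000000 UMIs over the members of the library, against 1366, 1117.5 and 1267 CPM in pericytes. At an equal depth of 500 UMIs, Myh11 was found in 100%, 96.9% and 100% of members in WT, BMD and DMD and in 2.17%, 5.58% and 6% of pericyte nuclei. Barcodes with at most 50 UMIs, which hold free RNA, carried Myh11 at 27.9, 34.7 and 28.2 CPM, against 8342, 9851 and 8507 CPM in the members.

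Several defining markers of other cells were not detected. Scara5 (fibroblasts), Cdh19 (Schwann cells), Cd163 (macrophages), Plin1 (adipocytes), and Msln and Upk3b (mesothelium) were at 0 UMIs in the members of every library. Endothelial genes outside the rule summed to 12, 9 and 4 UMIs. Cardiomyocyte genes outside the rule summed to 93, 85 and 72 UMIs, and the one with most UMIs was Ryr2, the intracellular calcium release channel. At least 1 of their UMIs was found in 17, 28 and 18 members, and at least 1 UMI of the fibroblast genes outside the rule in 24, 31 and 22. A single WT member with 2200 UMIs held 56 of those 93 UMIs and took 40.9% of its UMIs from mitochondrially encoded genes, and a single DMD member with 2615 UMIs held 23 of the 36 immune UMIs of its library, among them 12 of Ptprc. Scrublet, which scores barcodes for doublets, called neither of these mixed nuclei. It called 2, 1 and 2 members, against 8.01%, 5.10% and 10.4% of all nuclei, and among them was the deepest DMD member, with 2978 UMIs.

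Dmd, the gene altered in both models, was among the genes with most UMIs in the smooth muscle nuclei of every library. WT gave 162 UMIs (6561 CPM, exact Poisson 95% interval 5589 to 7652), BMD 433 (11254 CPM, 10219 to 12366) and DMD 223 (7558 CPM, 6599 to 8618). The log2 ratio, on CPM plus 20 throughout, was 0.78 for BMD over WT and 0.20 for DMD over WT, neither of which reached 2-fold. Counts summed over a gene this long do not show whether exons 45 to 47 or exon 52 are present, so they neither bear out nor contradict the genotype labels. Dystrophin transcripts were detected in 77 of 80 members and were higher than in pericytes in each library, with log2 ratios of 2.81, 2.98 and 2.86. Per nucleus, Dmd ran from 0 to 19 UMIs in WT with a median of 4, from 0 to 68 in BMD with a median of 12, and from 1 to 42 in DMD with a median of 8. The ranges overlap widely. Utrn, which encodes the dystrophin relative utrophin, stood at 2146, 1715 and 2881 CPM, a log2 ratio of -0.32 for BMD over WT and 0.42 for DMD over WT. The latter was 0.09 without the mixed nuclei.

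Other members of the dystrophin complex were sparser. Here and below a gene was compared when it had at least 30 UMIs over the 80 members, which 560 genes did, and was counted as higher or lower when CPM plus 20 differed at least 2-fold. By that measure 17.9% of the 560 genes were higher than in pericytes in each library, 12.3% were higher in BMD than in WT and 12% in DMD than in WT. Sntb1 and Dtna, a syntrophin and dystrobrevin that bind dystrophin inside the membrane, and Sgcd, delta-sarcoglycan, were at least 2-fold higher than in pericytes in each library, as was Dmd. Lama2, the laminin chain that the complex grips outside the cell, was lower than in pericytes in each library, as were 3.75% of all genes. Between genotypes, Sgcd had 6, 21 and 5 UMIs, with 8 of the 21 in a single nucleus, and Lama2 had 11, 21 and 29. The first was past 2-fold in BMD over WT and the second in DMD over WT, although the counting interval of the Sgcd ratio included 0. Sgcd was 0.98 without the mixed nuclei, and Lama2 was 0.80 without the deepest nucleus of each library, both short of 2-fold. With Dmd and Utrn, 6 of the 26 listed genes could be compared. Against all other nuclei, 0 of these 6 were higher in each library and 1 was lower, where 19.1% of all genes were higher and 2.5% lower.

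Against pericytes of the same library, 100 of the 560 genes (17.9%) were at least 2-fold higher in all 3 libraries and 21 (3.75%) were at least 2-fold lower. Because the rule separated both cell types by their genes, these counts are a description of the classes. Contractile genes outside the rule followed the genes that chose the members: 20 of the 24 compared were higher than in pericytes in each library and none was lower. Their summed level was 25594, 33451 and 31284 CPM, against 6200, 8037 and 7706 CPM in pericytes. Against all other nuclei, 11 of the 24 were higher in each library and 1 was lower, where 19.1% of all genes were higher and 2.5% lower. Lmod1, leiomodin, which nucleates actin filaments in smooth muscle, had log2 ratios over pericytes of 5.22, 3.21 and 3.83. Tpm1, tropomyosin, had 2.86, 3.08 and 2.75, Synpo2, an actin-bundling protein, 2.64, 2.20 and 3.01, and Mylk, myosin light chain kinase, 1.67, 1.57 and 1.07. The 4 that did not reach 2-fold in every library were Cald1, Vcl, Filip1l and Myl6. Myocd, the coactivator of this programme, had 3.23, 3.19 and 3.90, whereas the transcription factors Mef2c, Ebf1 and Tead1 stayed within 2-fold of the pericyte level, between -0.80 and 0.84. Over all other nuclei, however, Myocd lay between -0.63 and 0.84, and Pdlim5, another of the contractile genes, between -0.48 and 0.11.

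Outside the rule, and among genes with at least 60 UMIs, the one that stood farthest above pericytes in its lowest library was Ntrk3, the receptor of neurotrophin 3. It had 27, 52 and 38 UMIs in the members, or 1093, 1352 and 1288 CPM, while the far larger pericyte classes held 2, 2 and 1 UMIs. The lower bounds of the counting interval of its log2 ratio, without the added 20, were 5.49, 5.51 and 5.76. Next came Slit3, a secreted guidance protein, and Kcnma1, the large-conductance calcium-activated potassium channel that hyperpolarises smooth muscle, with log2 ratios of at least 4.83 and 4.76. Kcnma1 had 3, 1 and 0 UMIs in pericytes. In DMD it stood 59.0-fold above a floor of 3 counts over the pericyte class. The lower bound of its counting interval there was a log2 ratio of 5.46. Kank1, Kcnab1, Ltbp1, Sorbs2, Sox6, Zbtb7c, Lmod1, Myocd and Cdh13 completed the 12 highest. Kcnab1 encodes a subunit that modulates voltage-gated potassium channels and Ltbp1 a protein that stores latent TGF-beta in the matrix. Cdh13, T-cadherin, was the last of the 12, with 4.61, 4.62 and 3.06.

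**Figure D2:**
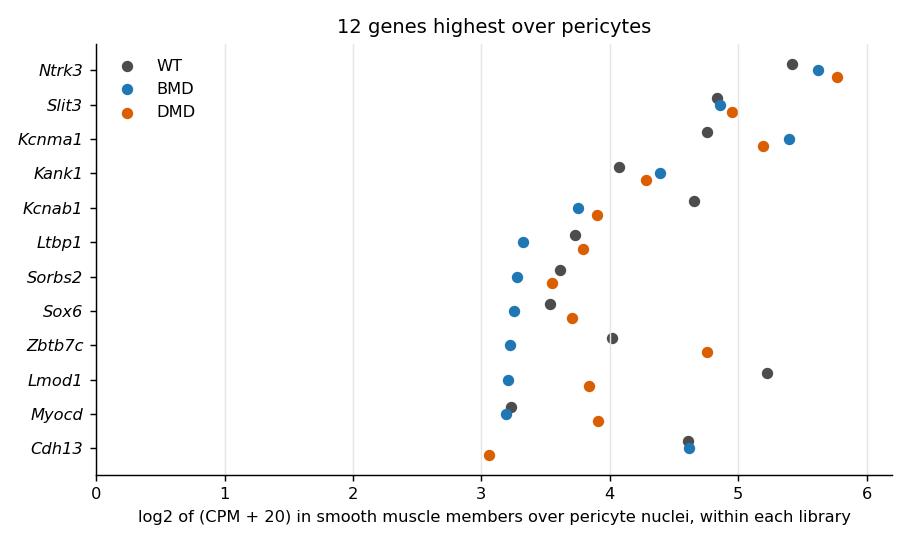
log2 of CPM plus 20 in smooth muscle members over pericyte nuclei of the same library (x axis) for the 12 genes farthest above pericytes outside the rule and with at least 60 UMIs, with 1 point per library. The lowest point is Cdh13 in DMD at 3.06, Ntrk3 is highest at 5.42 to 5.77, and Kcnma1 had no UMI in DMD pericytes.

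Over all other nuclei 107 genes (19.1%) were at least 2-fold higher in the 3 libraries and 14 (2.5%) were lower, again among genes chosen by their UMIs in the members. Leaving out the genes of the rule and those under 60 UMIs, the 12 highest were Lmod1, Ntrk3, Kcnma1, Kcnab1, Mrvi1, Pawr, Gucy1a1, Egflam, Mylk, Ttll7, Zbtb7c and Csrp1. Several of these were within 2-fold of the pericyte level. Gucy1a1, a subunit of the nitric oxide receptor, was 4.05, 4.01 and 3.52 over all other nuclei, but 0.54, -0.11 and -0.18 over pericytes. Mrvi1, a target of cyclic GMP-dependent protein kinase that damps calcium release, and Egflam, a matrix protein, were placed in the same way, with log2 ratios over pericytes of 0.06 to 0.95 and of -0.17 to 0.55.

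Of the 17 channel and calcium-handling genes compared, 7 were at least 2-fold higher than in pericytes in each library, namely Cacna1d, Cacnb2, Kcnma1, Kcnab1, Slc8a1, Casq2 and Camk2d, where 17.9% of all genes were higher and 3.75% lower. Abcc9, the regulatory subunit of the ATP-sensitive potassium channel of pericytes, was lower in each, at 202, 780 and 373 CPM in members against 6425, 5955 and 6628 CPM in pericytes. Cacna1c, the main L-type calcium channel of smooth muscle, had 26, 54 and 26 UMIs, and log2 ratios over pericytes of 1.51, 1.41 and 0.76. The other genes lower than in pericytes included Rgs5 and Pdgfrb, which the rule used, the adhesion receptor Adgrl3, and Gucy1a2, a second subunit of guanylate cyclase. The angiotensin receptor Agtr1a had 0 UMIs in the members, which at 3 counts allows up to 121, 78.0 and 102 CPM. Pericytes held it at 109.7, 105.5 and 80.4 CPM, below that bound in WT and DMD and above it in BMD. The bound is not an exact interval and the pericyte counts carry counting error too, so a difference from pericytes was not established in any library.

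Members of 1 library differed widely among themselves. Myh11 ran from 2 to 29 UMIs per nucleus in WT with a median of 6, from 1 to 35 in BMD with a median of 8.5 and from 2 to 46 in DMD with a median of 10. As a share of the nucleus' UMIs the medians were 0.668%, 0.838% and 0.799%. Ntrk3 was found in 31 of the 80 nuclei and reached 15 UMIs in a single one, Kcnma1 was found in 25, and Slit3 in 34, so these 3 genes were each detected in a minority of members. Transcripts with more UMIs were found in most: Pde3a, the cyclic nucleotide phosphodiesterase 3A, in 77, Ebf1, a transcription factor of mural cells, in 76, and Slc8a1, the sodium-calcium exchanger, in 74. These shares rise with the UMIs of a gene and of a nucleus, and members held from 564 to 2978 UMIs.

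**Figure D3:**
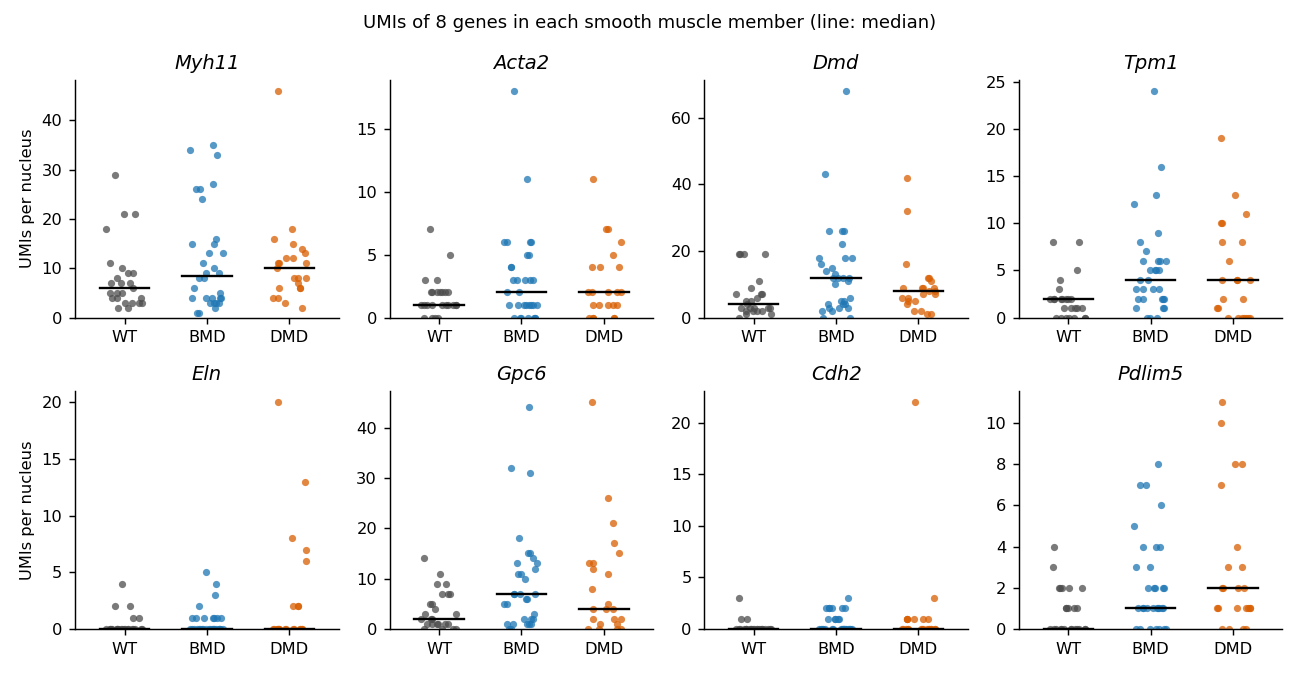
UMIs per nucleus (y axis) of 8 genes in each member by library, with the median as a line. Myh11 was present in every nucleus, the ranges of the 3 libraries overlap for each gene, and the highest DMD nuclei held 20 of 60 Eln and 22 of 31 Cdh2 UMIs.

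Between genotypes, 69 of 560 genes (12.3%) were at least 2-fold higher and 37 (6.61%) at least 2-fold lower in BMD than in WT members. For DMD over WT, 67 (12%) were higher and 49 (8.75%) lower. The median log2 ratio of all 560 genes was 0.16 for BMD over WT and 0.05 for DMD over WT. Both comparisons use the same 25 WT nuclei and 24693 WT UMIs, against 38474 UMIs in BMD and 29504 in DMD, so their values are given side by side and their likeness is not a result. Genes entered by their UMIs summed over all libraries, so a gene high in a single genotype could enter through that genotype alone. Of 88 named log2 ratios past 2-fold between genotypes, mitochondrial genes aside, 53 came short of it under at least 1 other setting.

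Among genes with at least 60 UMIs, the 8 lowest in both models over WT were all mitochondrially encoded. For most of them the low ratio traced to the single WT nucleus described above. All 9 mitochondrial genes compared were at least 2-fold lower in BMD and in DMD than in WT. Mt-co1, a subunit of cytochrome oxidase, had 292, 69 and 69 UMIs, and 245 of the 292 came from that nucleus. Mitochondrial UMIs were 4.76%, 0.824% and 1.09% of all member UMIs. The median member held 0.471%, 0.495% and 0.693%. Without both mixed nuclei, the WT value was 1.23% and the Mt-co1 log2 ratio was -0.22 for BMD over WT and 0.19 for DMD over WT, against -2.71 and -2.33 with them. The lower mitochondrial level in BMD and DMD members therefore rested on 1 WT nucleus for most of these genes. With both mixed nuclei left out, 1 gene in BMD and 2 in DMD of the 8 still compared were at least 2-fold lower. Des, the intermediate filament desmin, had 8 of its 14 WT UMIs in the same nucleus, and its log2 ratio of -1.63 for DMD over WT was -0.48 without the mixed nuclei.

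**Figure D4:**
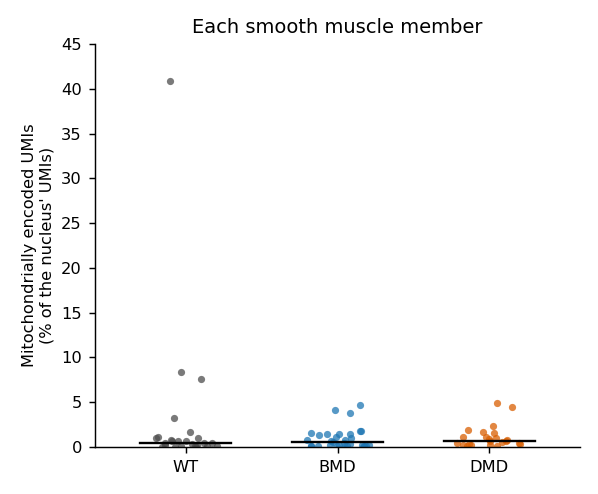
Mitochondrially encoded UMIs as a share of the UMIs of each member (%, y axis) by library, with the median as a line. A single WT nucleus reached 40.9%, and no BMD or DMD member exceeded 5%.

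Among genes with at least 60 UMIs over the members, the 8 highest in both models over WT were Map4, P3h2, Parva, Esyt2, Gmds, Vcl, Filip1l and Pdlim5. Sparser genes such as Angpt1 had larger ratios. Map4, which stabilises microtubules, had 6 UMIs for WT (243 CPM, 89.2 to 529), 36 for BMD (936 CPM, 655 to 1295) and 26 for DMD (881 CPM, 576 to 1291). On CPM plus 20, BMD and DMD stood 3.63-fold and 3.43-fold above WT. Pericytes held Map4 at 658, 742 and 656 CPM, so the WT members were low against their pericytes and the other members were not. Vcl, vinculin, and Parva, alpha-parvin, which join integrins to actin, were also lowest in WT, with 405, 988 and 949 CPM for Vcl and 324, 858 and 847 CPM for Parva. For both genes the WT Poisson interval overlapped those of BMD and DMD. Pdlim5, a scaffold of actin and protein kinases, had 22, 71 and 69 UMIs in 12, 25 and 19 nuclei, or 891, 1845 and 2339 CPM, and its WT interval (558 to 1349) lay below those of BMD (1441 to 2328) and DMD (1820 to 2960).

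For P3h2 and Filip1l a single nucleus weighed heavily. P3h2, which hydroxylates proline in basement membrane collagen, had 16 of its 33 DMD UMIs in the deepest DMD nucleus. Without the deepest member of each library its log2 ratio for DMD over WT was 0.65 in place of 1.57. Filip1l, a filamin-interacting protein, had 14 of 29 DMD UMIs in a single nucleus, and its ratio moved from 1.11 to 0.48. Esyt2, which tethers the endoplasmic reticulum to the plasma membrane, and Gmds, an enzyme of GDP-fucose synthesis, had 1.45 and 1.31 without these nuclei, but with barcodes of at least 1000 UMIs Esyt2 was at 0.56, short of 2-fold.

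**Figure D5:**
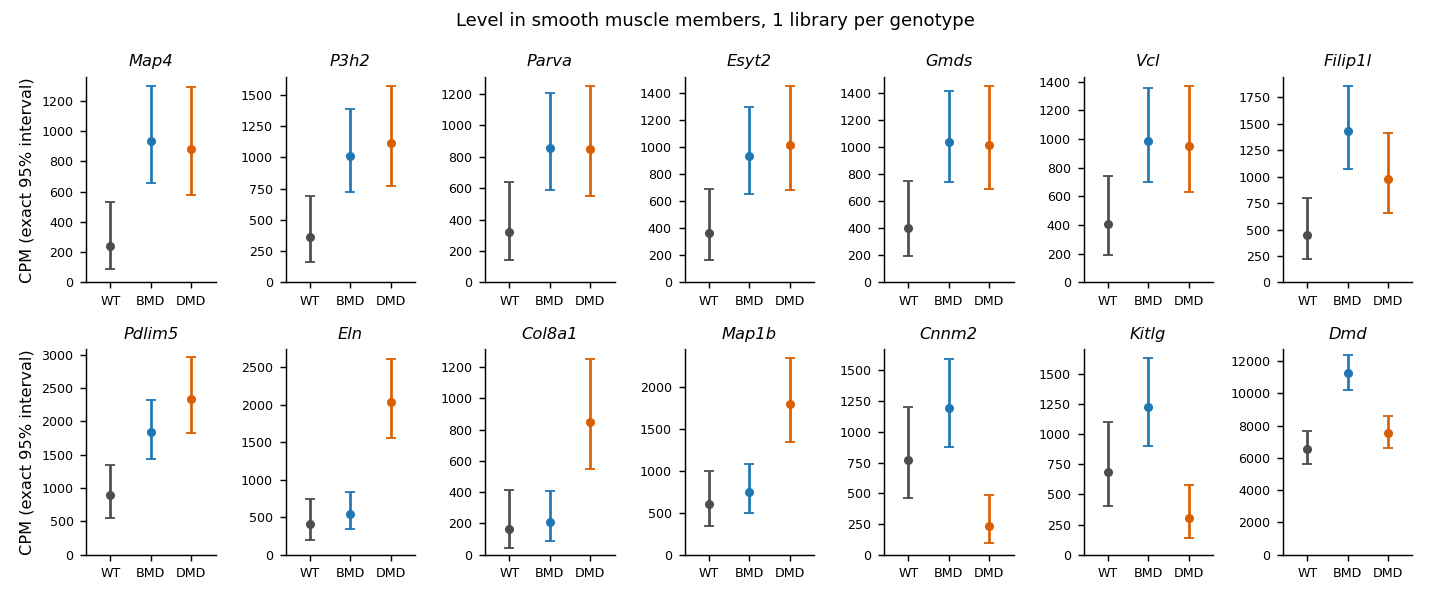
Level in the summed members of each library (CPM, y axis from 0) with its exact Poisson 95% interval, for the 8 genes highest in both models over WT among those with at least 60 UMIs and for Eln, Col8a1, Map1b, Cnnm2, Kitlg and Dmd. WT is the lowest library for the first 8 genes, DMD is the highest for Eln, Col8a1 and Map1b and the lowest for Cnnm2 and Kitlg.

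Of the 24 contractile genes compared outside the rule, 6 were at least 2-fold higher in BMD than in WT and none lower, where 12.3% of all genes were higher, with a median log2 ratio of 0.30 beside 0.16 for all genes. The 6 came to 3 when levels were averaged over nuclei. They were Tpm1, Actg2, Pgm5, Vcl, Filip1l and Pdlim5. In DMD over WT, Actg2, Pgm5, Flna, Vcl, Filip1l and Pdlim5 were higher and Des was lower, where 12% of all genes were higher and 8.75% lower, with a median of 0.23 beside 0.05. Without the mixed nuclei Pgm5 in BMD (0.96), and Flna (0.98) and Des (-0.48) in DMD, did not reach 2-fold. Tpm1 had 49 UMIs for WT (1984 CPM, 1468 to 2623), 166 for BMD (4315 CPM, 3683 to 5023) and 107 for DMD (3627 CPM, 2972 to 4382), and its per-nucleus median was 2, 4 and 4 UMIs. Actg2, the enteric smooth muscle actin, rested on few nuclei, with 5, 19 and 15 UMIs in 3, 4 and 4 of them, and the counting intervals of its ratios and of those of Pgm5 included 0. Of the genes that the rule used, Myh11 had log2 ratios of 0.24 for BMD over WT and 0.03 for DMD over WT, Acta2 0.58 and 0.32, and Tagln 0.87 and 0.36. Mylk, Lmod1, Tpm2, Csrp1 and Ntrk3 lay within 0.4 of 0 in both comparisons. Myocd had 14, 57 and 26 UMIs in 9, 19 and 9 nuclei, a log2 ratio of 1.36 for BMD over WT and 0.62 for DMD over WT.

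Adhesion genes gave 4 higher and 1 lower of 13 in BMD over WT, and 3 higher and 1 lower in DMD over WT. Of all genes 12.3% were higher and 6.61% lower in BMD, and 12% and 8.75% in DMD. Beside Parva and Vcl, these were Cdh2 in both models and Cdh6 in BMD, where the counting intervals of both included 0, with Tns1, the focal adhesion protein tensin 1, lower in BMD and Itga7, a laminin receptor, lower in DMD, where its counting interval (-2.96 to 0.27) included 0. Cdh2, N-cadherin, took 22 of its 31 DMD UMIs from the deepest DMD member, the nucleus called a doublet. Its log2 ratio for DMD over WT was 2.27, and 0.57 without the deepest nucleus of each library.

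Of the 16 matrix genes compared, 7 were at least 2-fold higher in DMD than in WT and none lower, where 12% of all genes were higher, and the list median was 0.76 beside 0.05 for all genes. In BMD over WT only Fbn1 and Col4a3 were past 2-fold, where 12.3% of all genes were higher, and the 2 came to 1 under 5 other settings and to 0 among genes with at least 60 UMIs. Eln, elastin, the protein of the elastic lamellae of arteries, had 10 UMIs for WT (405 CPM, 194 to 745), 21 for BMD (546 CPM, 338 to 834) and 60 for DMD (2034 CPM, 1552 to 2618). DMD thus stood 4.83-fold above WT, with a log2 interval of the ratio of 1.35 to 3.46, and 3.63-fold above BMD, with 1.16 to 2.69. Elastin transcripts were detected in 5 of 25, 11 of 32 and 8 of 23 nuclei, or 20%, 34.4% and 34.8%, and with nuclei thinned to 500 UMIs in 16%, 15.6% and 26.1%. At full depth 5 DMD nuclei held at least 5 UMIs against 1 in BMD and none in WT. The highest held 20 of the 60. Under all 16 other settings tried, the log2 ratio of DMD over WT stayed between 2.05 and 2.96.

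Col8a1, a short-chain collagen of the vessel wall, had 4, 8 and 25 UMIs in 1, 4 and 7 nuclei, or 162, 208 and 847 CPM, and all 4 WT UMIs lay in a single nucleus. It had enough UMIs to be compared only through DMD. The other matrix genes higher in DMD were Fbn1 (fibrillin 1), Col3a1, Col4a3, Col18a1 and Lama2, each with 13 to 29 UMIs in DMD. Col4a3 had 3 UMIs in WT, and its counting interval for DMD over WT included 0, as did that of Col18a1. Egflam was lower than in WT without reaching 2-fold in either model, at 1579, 806 and 881 CPM. With the mixed nuclei left out, 6 matrix genes were higher in DMD than in WT, with barcodes of at least 1000 UMIs 4, and among genes with at least 60 UMIs 2. Fibroblast transcripts were also present. The 10 fibroblast genes outside the rule summed to 5143, 8941 and 9795 CPM, with 7, 8 and 8 of them detected. The one with most UMIs was Gpc6, a glypican that the members held above pericytes in each library, at 96, 303 and 206 UMIs. Without it the sums were 1255, 1066 and 2813 CPM, from 31, 41 and 83 UMIs. Gsn, gelsolin, had 8, 8 and 23 UMIs, with log2 ratios of 1.22 for DMD over WT and 1.81 for DMD over BMD, and the median over the 4 fibroblast genes compared was 1.01 for DMD over WT. The fibroblast markers Col1a1 (2, 3 and 10 UMIs), Lum (0, 1 and 6) and Dcn (3, 2 and 8), the last of which the rule limited, were all highest in DMD. Their part in the matrix values was not tested. Free RNA was estimated at 6.54%, 6.07% and 9.26% of member UMIs, and after it was subtracted 7 matrix genes were past 2-fold in DMD over WT. The estimate rested on 11, 38 and 29 UMIs of 10 cardiomyocyte genes, with the mixed nuclei left out. It does not measure transcripts of a fibroblast nucleus that shared a barcode with a member.

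With DMD and BMD members set directly against each other, 31 genes (5.54%) were at least 2-fold higher in DMD and 46 (8.21%) lower, with a median log2 ratio of -0.12. This comparison does not use the WT library. Among genes with at least 60 UMIs, Eln was the highest in DMD over BMD, followed by Tns1, Map1b, Zcchc7, Pde4d and Ssbp2. None of these held 60 UMIs without DMD, so their entry to the ranking rested on that library. Pde4d was 0.99, and 0.55 without the deepest nuclei. The sparser Col8a1 was at 1.93. Map1b, a microtubule-associated protein, had 15, 29 and 53 UMIs in 11, 19 and 19 nuclei, or 607.5, 754 and 1796 CPM, a log2 ratio of 1.23 for DMD over BMD. Tns1 was low in BMD, at 494 CPM against 1417 CPM in WT and 1356 CPM in DMD.

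The lowest in DMD over BMD among genes with at least 60 UMIs were Cnnm2, Kitlg, Etl4, Adgrl3, Galnt18 and Pnisr. None of these held 60 UMIs without BMD, so their entry to the ranking rested on the library in which they were high. Averaged over nuclei, Etl4 (-0.97) and Galnt18 (-0.66) came short of 2-fold, as did Adgrl3 (-0.84) with at least 6 smooth muscle UMIs and Pnisr (-0.91) with at least 3. Cnnm2, a membrane protein of magnesium handling, had 19, 46 and 7 UMIs in 12, 17 and 4 nuclei, or 769, 1196 and 237 CPM. Its log2 ratio was -2.24 for DMD over BMD, with an interval of -3.73 to -1.18, and -1.62 for DMD over WT. Kitlg, the ligand of the Kit receptor, had 17, 47 and 9 UMIs, or 688, 1222 and 305 CPM. Both genes were lowest in DMD and highest in BMD. Of the 16 matrix genes, 5 were higher in DMD than in BMD (5.54% of all genes were), namely Eln, Col3a1, Col8a1, Timp3 and Adamts9, and Col4a5 was lower. The 5 came to 2 with 2 times as many smooth muscle as pericyte UMIs or with barcodes of at least 1000 UMIs, to 3 with at least 6 smooth muscle UMIs or without Scrublet doublets, and to 1 among genes with at least 60 UMIs. Without the deepest nuclei Adamts9 (0.80) and Col4a5 (-0.84) did not reach 2-fold. Contractile genes gave 0 higher and 1 lower, Des, of 24, where 5.54% of all genes were higher and 8.21% lower.

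Genes that set vascular tone were compared in a list of channel and calcium genes and a list of relaxation genes. Of 17 channel and calcium genes, Abcc9 was higher and Cacna1d lower in BMD over WT, and only Cacna1d was lower in DMD over WT. Of all genes, 12.3% were higher and 6.61% lower in BMD, and 8.75% lower in DMD. Cacna1d, an L-type calcium channel that opens at lower voltage than Cacna1c, had 19, 13 and 5 UMIs in 9, 10 and 4 nuclei, or 769, 338 and 169 CPM. Of 20 genes of cyclic nucleotide and relaxation signalling, Prkacb, Arhgef12 and Rgs5 were higher and Gucy1b1 and Plcb1 lower in BMD, and Gucy1b1 alone was lower in DMD, where of all genes 12.3% were higher and 6.61% lower in BMD and 8.75% lower in DMD. Without the mixed nuclei Arhgef12 (0.93) and Rgs5 (0.88), which the rule limited, did not reach 2-fold in BMD over WT. Gucy1b1, the obligate partner of Gucy1a1 in the nitric oxide receptor, had 19, 14 and 10 UMIs, or 769, 364 and 339 CPM. The log2 ratio was -1.04 for BMD over WT and -1.14 for DMD over WT, and the upper bound of each counting interval was -0.01. Under TMM scaling they were -0.85 and -0.99, and with barcodes of at least 1000 UMIs -0.28 and -0.75, short of 2-fold. Cacna1d in BMD over WT was -1.14, -0.95 under TMM scaling and -0.38 with 2 times as many smooth muscle as pericyte UMIs.

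Pericyte genes summed to 8626, 7070 and 5864 CPM in the members. Their median log2 ratio was -0.44 for BMD over WT and -0.81 for DMD over WT, beside 0.16 and 0.05 for all genes. The sum holds Rgs5, Kcnj8, Notch3 and Pdgfrb, which the rule limited, and 3 of the 8 genes compared were among these. Sum and median are therefore in part descriptions of the choice. Of the 8 compared, Rgs5 and Abcc9 were at least 2-fold higher in BMD than in WT and Gucy1b1 was lower, where 12.3% of all genes were higher and 6.61% lower. In DMD over WT only Gucy1b1 was lower, where 8.75% of all genes were. In DMD over BMD, Rgs5 and Abcc9 were lower, where 8.21% of all genes were. Rgs5, which damps G protein signalling, had 9, 29 and 6 UMIs, or 364, 754 and 203 CPM, and the rule limited it. Its counting interval for BMD over WT, like that of Plcb1, included 0. Of the 44 vasoactive receptor genes only Ednra, the endothelin receptor, and Calcrl, the receptor subunit for CGRP and adrenomedullin, could be compared. Calcrl had 10, 37 and 7 UMIs, a log2 ratio of 1.21 for BMD over WT and -1.93 for DMD over BMD.

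Among growth factor genes, Angpt1, the ligand of endothelial Tie2 receptors, had 2, 15 and 13 UMIs, so the counting interval of the log2 ratio was wide, at 0.16 to 5.44 for BMD over WT and 0.30 to 5.63 for DMD over WT. Igfbp7, a secreted binding protein, had 26, 78 and 66 UMIs, and Fgf1 4, 11 and 17. Ntf3, which encodes the ligand of the Ntrk3 receptor, had 20, 14 and 10 UMIs, or 810, 364 and 339 CPM. Receptor and ligand were thus both detected in the smooth muscle nuclei of each library. Fgfr1, a fibroblast growth factor receptor, had 16, 12 and 3 UMIs, with a counting interval of -5.09 to -0.87 for DMD over WT. That log2 ratio was -2.46, and from -3.68 to -0.18 under 16 other settings, the last short of 2-fold. Of the 9 genes of the group, Angpt1, Igfbp7 and Fgf1 were at least 2-fold higher in DMD than in WT, Angpt1 was also higher in BMD, and Ntf3 and Fgfr1 were lower in both, where of all genes 12% were higher and 8.75% lower in DMD and 12.3% and 6.61% in BMD. Fgf1 was 0.66 with at least 3 smooth muscle UMIs in place of 1.71. In BMD over WT, Fgfr1 was -1.01 with a counting interval of -2.27 to 0.12, and under TMM scaling it was -0.82 and Ntf3 -0.92, short of 2-fold.

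The remaining groups held few genes that could be compared. Of synthetic state genes, Col3a1 and Col8a1 were higher in DMD over WT and Vim in BMD over WT, out of 4, where 12% and 12.3% of all genes were higher. Stat3 was higher in both models, with 6, 22 and 16 UMIs, as 1 of 2 inflammation genes beside the same shares of all genes, with counting intervals that included 0, as did that of Vim. Neither Notch gene and neither TGF-beta gene reached 2-fold in a comparison between genotypes. No immediate early gene reached 30 UMIs, and cell division genes gave 0, 0 and 3 UMIs.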

How the data were processed

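Single-nucleus libraries were made with the 10x Chromium 3′ v3.1 kit per the labels (the study's Results name a 5′ kit). The deposited matrices hold raw UMI counts of all barcodes, which the authors made with Cell Ranger (4 and 6.0.1 per the file headers) on build rn6. The WT matrix is an aggregate of the 3 libraries in which 76.1% of the BMD and 92.9% of the DMD UMIs were kept. WT was read from its own barcode suffix, and BMD and DMD from their own matrices. Libraries held 21609238, 21142346 and 19215994 UMIs in WT, BMD and DMD.

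Nuclei were the 9964, 6810 and 7890 barcodes with most UMIs, the numbers of nuclei the study states. Member UMIs were summed per library and scaled to CPM. With 1 library per genotype no test was run, and nuclei were not treated as replicates. Ratios are log2 of CPM plus 20, over genes with at least 30 UMIs in the 80 members. Intervals are exact Poisson (levels), Clopper-Pearson (shares), Newcombe (share differences) and exact conditional binomial (ratios, without the added 20), at 95%, for counting error only.

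Members, gene lists and settings were chosen with earlier results of these data known. Named genes were those of the rule and Dmd, list members past 2-fold or with most UMIs, and, among genes with at least 60 UMIs, the 8 highest and lowest in both models over WT, the 6 highest and lowest in DMD over BMD, and the 12 highest over pericytes and over all other nuclei. Pericyte nuclei had at least 4 UMIs of the pericyte genes, more than of the smooth muscle genes, under the same limits. Some items are not reported here. Doublets were kept, and removing those called by Scrublet was an alternative, as was TMM scaling (edgeR 4.0.16). Python 3.11.15 with numpy 2.4.6, scipy 1.17.1, pandas 2.3.3, scanpy 1.11.5 and matplotlib 3.10.9, and R 4.3.3, were used, and the steps were checked on simulated data.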

Additional observations from a re-analysis of the deposited data

How the results depend on the processing

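No paired analysis was possible because each genotype had 1 library and the labels give no replicate numbers, and for the same reason no library could be left out. The differences in share between libraries kept their sign under 10 other settings, at 0.138 to 0.279 points for BMD minus WT, 0.0153 to 0.102 for DMD minus WT and -0.191 to -0.0676 for DMD minus BMD. None of these settings changed the limits on other cell types. Of nuclei that met both smooth muscle conditions, 5 of 30 in WT, 10 of 42 in BMD and 21 of 44 in DMD failed those limits. Shares without the limits were not compared. Counts of genes past 2-fold (106 for BMD over WT, 116 for DMD over WT and 77 for DMD over BMD) came to 25, 34 and 12 among genes with at least 60 UMIs and to 4896, 5258 and 4906 among all genes with a UMI, and DMD over BMD to 50 with 2 times as many smooth muscle as pericyte UMIs. The other settings stayed within 78 to 123, 81 to 129 and 52 to 91. Leaving out the mixed nuclei or the deepest nucleus of each library, and scaling without mitochondrially encoded genes, were chosen after seeing the data.

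Of 1982 values of 125 named results under other settings, 35 reversed, and 33 of these were of mitochondrial genes or Tnnt2, of whose 14 WT UMIs 10 lay in the mixed WT nucleus. The others were Abcc9, at 0.23 for DMD over BMD with at least 3 smooth muscle UMIs, and Fgfr1, at 0.80 for BMD over WT with barcodes of at least 1000 UMIs, and their cause was not tested. With nuclei over 5% mitochondrial UMIs removed, log2 ratios over WT for BMD and DMD in turn were 0.27 and 0.42 for Mt-atp6, 0.61 and 0.99 for Mt-co1, 0.63 and 1.01 for Mt-co2, 0.84 and 1.53 for Mt-co3, 0.23 and 0.46 for Mt-cyb, 1.52 and 2.12 for Mt-nd2, 1.73 and 1.46 for Mt-nd3, 0.088 and 0.29 for Mt-nd4, and 0.38 and 0.26 for Tnnt2. Without the mixed nuclei they were 0.16 and 0.72 for Mt-nd2, 1.07 and 0.92 for Mt-nd3 and 0.50 and 0.50 for Tnnt2, and DMD over WT was 0.19 for Mt-co1 and 0.064 for Mt-co3. Without the deepest nuclei they were 0.26 and 0.55 for Mt-nd2 and 1.16 and 0.94 for Mt-nd3, with 0.18 for Mt-co1 and 0.23 for Mt-co3 in DMD over WT and 0.59 for Tnnt2 in BMD over WT.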
